A study of Mus musculus with 2 samples.

Results

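The genes described here are 37 cell cycle genes of splenic dendritic cells (DC), picked by their symbols from the 32285 genes of the deposited tables. An S list of 18 genes copies DNA (Mcm2 to Mcm7, Gins2, Cdc6, Cdt1, Pcna, Pclaf, Rrm1, Rrm2, Tyms, Dut, Uhrf1, Hells and Slbp). A G2/M list of 19 genes prepares and carries out mitosis (Top2a, Mki67, Cdk1, Ccnb1, Ccnb2, Ccna2, Birc5, Aurka, Aurkb, Bub1, Ube2c, Plk1, Cenpf, Cenpe, Prc1, Nusap1, Kif11, Tpx2 and Stmn1). All 37 were found in the tables, and all had UMIs (counted RNA molecules) in both libraries. Live CD45.2+ CD11c+ cells had been sorted from naive spleens after CD11c enrichment and profiled by droplet scRNA-seq from the 3′ end. One group was WT (H2-Aa +/+) and the other H2-Aa cit/cit, homozygous for the citation (cit) allele of H2-Aa, the gene of the MHC-II alpha chain. Each group was 1 library from 3 pooled female mice that were 4 months old by the labels. Since library and genotype cannot be told apart, no test was run and no p-value is given.

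Replication begins when the MCM helicase is loaded on origins with the help of CDC6 and CDT1, and it proceeds on the PCNA clamp with newly made deoxynucleotides. Later in the cycle the cyclin A and cyclin B partners of CDK1, the Aurora and Polo-like kinases and the spindle proteins take the cell through mitosis. S phase genes are classically switched on by E2F factors, and G2/M genes by complexes that read CHR and CCAAT elements in the promoter. In the spleen, conventional DC (cDC) still divide after they have arrived as precursors, whereas mature CCR7+ DC and plasmacytoid DC (pDC) are regarded as mostly resting.

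The promoters of both lists differed in these elements. RefSeq promoters of GRCm38.p6, each from 250 bases before to 50 bases after the start, were at hand for 31 of the 37 genes. Mcm4, Gins2, Ccna2, Tpx2, Aurkb and Stmn1 had no entry. Both strands were searched for 4 E2F-like words (TTTGGCGC, TTTCCCGC, TTTGCCGC and TTTCGCGC), for the CHR word TTTGAA and for the CCAAT box CCAAT. An E2F-like word stood in the promoters of 9 of 16 S genes and of 1 of 15 G2/M genes (Cdk1), beside 2.61% of all 27025 genes. TTTGAA stood in 1 of 16 S genes (Mcm2) and in 10 of 15 G2/M genes, beside 20.2% of all genes. CCAAT was common in both lists, with 11 of 16 S genes and 13 of 15 G2/M genes, beside 41.1% of all genes. The 10 G2/M genes with TTTGAA all held the CCAAT box as well.

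The 150 bases before the start are printed for 6 genes that returned in the comparisons below, 3 of each list. Capitals mark all these words, on either strand. The CHR word is TTCAAA when read from the other strand, and the CCAAT box is then ATTGG. In Mcm6 the first pair of E2F-like words overlaps, and in Pclaf the word is cut by the end of the window. The windows are Mcm6 chr1:128359706-128359855 (minus strand), Pclaf chr9:65890173-65890322 (plus), Hells chr19:38930840-38930989 (plus), Cdk1 chr10:69352913-69353062 (minus), Kif11 chr19:37376232-37376381 (plus) and Ube2c chr2:164769779-164769928 (plus).
Mcm6: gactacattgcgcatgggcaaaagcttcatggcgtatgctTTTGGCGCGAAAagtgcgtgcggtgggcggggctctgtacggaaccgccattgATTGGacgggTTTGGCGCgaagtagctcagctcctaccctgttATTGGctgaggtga
Pclaf: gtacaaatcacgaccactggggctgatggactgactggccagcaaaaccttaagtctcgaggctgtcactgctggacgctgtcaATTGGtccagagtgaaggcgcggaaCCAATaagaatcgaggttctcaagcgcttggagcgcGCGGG
Hells: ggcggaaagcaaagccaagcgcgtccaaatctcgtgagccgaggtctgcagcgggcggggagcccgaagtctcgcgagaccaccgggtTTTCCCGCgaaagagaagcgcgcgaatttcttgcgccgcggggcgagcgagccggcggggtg
Cdk1: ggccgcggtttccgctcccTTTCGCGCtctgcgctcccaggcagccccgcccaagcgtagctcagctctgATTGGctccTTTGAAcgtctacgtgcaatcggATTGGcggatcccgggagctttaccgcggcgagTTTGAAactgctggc
Kif11: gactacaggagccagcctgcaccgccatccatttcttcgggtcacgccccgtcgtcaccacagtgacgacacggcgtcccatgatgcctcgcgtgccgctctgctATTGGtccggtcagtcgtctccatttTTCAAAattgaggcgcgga
Ube2c: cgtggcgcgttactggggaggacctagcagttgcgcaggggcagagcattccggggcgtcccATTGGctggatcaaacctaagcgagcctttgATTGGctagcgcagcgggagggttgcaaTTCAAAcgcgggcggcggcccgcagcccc
A match is a description of the letters and not of binding. Cdk1, which drives entry into mitosis, held all 3 kinds of element, and such a pair of E2F-like word and TTTGAA was found in 0.318% of all genes.

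In all, 7814 WT cells gave 51020804 UMIs and 11525 H2-Aa cit/cit cells gave 72652201, with medians of 5492 and 5633 UMIs per cell. Levels are given as CPM, the UMIs of a gene or list scaled to a total of 1000000 UMIs. H2-Aa itself was at 5409.7 CPM in the WT library and at 66.2 CPM in the other. Only 31 barcodes occurred in both libraries. Cells were put into classes by marker genes that hold no cell cycle gene, and 3 to 9 of the 10 leading genes of each class named below were its own markers. The cDC2-like cells outside the 3 cDC2 subclasses were the exception, with none, and had Pclaf and Stmn1 among their leading genes. Since cells were gated on the class markers, the lead of these markers was largely set in advance and is a description only. Unassigned cells (6.21% of the WT library, 4.65% of the other) were led by Igkc, Igha and Jchain, genes of plasma cells. Intervals below are 95% intervals and cover counting error only, not the spread between mice. Those of levels and ratios take each UMI as independent, although many UMIs of a list can come from few cells.

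Over all cells, mitosis genes were higher in the H2-Aa cit/cit library, while S phase genes were nearly level. Summed, the G2/M genes made up 435 CPM in WT, compared with 527 CPM in H2-Aa cit/cit, a 1.21-fold difference (log2 ratio 0.28, interval 0.25 to 0.30). The S list made up 455 and 465 CPM (log2 ratio 0.03, interval 0.01 to 0.06), and its ratio was -0.055 when the mean over cells was taken in place of the sum. All 19 G2/M genes were higher in H2-Aa cit/cit cells, 17 of them with intervals above 0. How many of all genes had such intervals was not counted. Of the 37 members, 11 were at least 1.2-fold higher in H2-Aa cit/cit cells, all from the G2/M list, and 0 were at least 1.2-fold lower. Among the 12180 genes with at least 200 UMIs, 18.5% were that much higher and 21.6% that much lower. The median log2 ratio was 0.28 for the G2/M list, 0.06 for the S list and -0.00 for all genes.

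Among the mitotic kinases and their partners, Aurka, the Aurora kinase of the centrosome, had the highest ratio of all members. Its 291 UMIs in WT and 606 UMIs in H2-Aa cit/cit cells gave 5.70 and 8.34 CPM (log2 ratio 0.55, interval 0.34 to 0.76). Ube2c, the conjugating enzyme of the anaphase-promoting complex, was at 21.9 and 29.5 CPM (0.43, 0.32 to 0.53). Aurkb, the kinase of the chromosomal passenger complex, was at 8.66 and 11.0 CPM (0.34, 0.17 to 0.51). The other 3 genes of this group stayed under 1.2-fold. Birc5 (survivin, of the same complex) was at 22.6 and 27.0 CPM (0.26), and the checkpoint kinase Bub1 at 6.76 and 7.91 CPM (0.23). Plk1, the Polo-like kinase, had the fewest UMIs of all members (185 and 292), and its interval held 0 (0.15, -0.12 to 0.42).

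Spindle genes were spread more widely. Kif11, the motor that pushes spindle poles apart, had 20.01 CPM in WT, compared with 27.9 CPM in H2-Aa cit/cit (0.48, 0.37 to 0.59). Tpx2, which brings Aurora A to the spindle, was at 18.7 and 25.0 CPM (0.42, 0.31 to 0.54). Stmn1, which takes microtubules apart, had the most UMIs of all members (4804 and 7612), and differed least within this group, with 94.2 and 105 CPM (0.15, 0.10 to 0.21). The kinetochore protein Cenpf (0.29) and the midzone protein Prc1 (0.27) were just past 1.2-fold, and the kinetochore motor Cenpe (0.21) and the microtubule binder Nusap1 (0.20) just under it.

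Cyclins and chromosome genes differed by similar amounts. Cdk1 was at 9.90 and 12.8 CPM (0.38, 0.22 to 0.53), Ccnb1 at 4.35 and 5.84 CPM (0.42, 0.19 to 0.66) and Ccnb2 at 12.3 and 14.9 CPM (0.28, 0.14 to 0.42). Ccna2, the cyclin that already acts in S phase, had the lowest ratio of the G2/M list, with 7.76 and 8.38 CPM (0.11, -0.07 to 0.30). Top2a, which untangles sister chromatids, was at 63.9 and 81.2 CPM (0.34, 0.28 to 0.41), and Mki67, the coat protein of mitotic chromosomes, at 59.4 and 69.6 CPM (0.23, 0.16 to 0.29).

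No S phase gene reached 1.2-fold, and ratios varied within each role as well as between roles. The 9 genes of the MCM helicase and its loading summed to 161 and 165 CPM (0.03, -0.01 to 0.07), with Mcm7 highest (22.8 and 25.5 CPM, 0.16) and Mcm4 lowest (21.9 and 20.4 CPM, -0.10). Of the clamp genes, Pcna was level, with 52.2 CPM in both libraries (0.00, -0.07 to 0.07), while its binding partner Pclaf was at 44.2 and 51.4 CPM (0.22, 0.14 to 0.29). The 4 genes of deoxynucleotide supply (Rrm1 and Rrm2 of ribonucleotide reductase, Tyms and Dut) summed to 90.6 and 98.8 CPM (0.12, 0.07 to 0.18). The group that copies chromatin marks and handles histone mRNA was lower in H2-Aa cit/cit cells, with 107 and 98.0 CPM (-0.12, -0.18 to -0.07). In that group the chromatin remodeller Hells was at 33.3 and 28.1 CPM (-0.25, -0.34 to -0.15) and the maintenance methylation factor Uhrf1 at 18.8 and 16.4 CPM (-0.20, -0.33 to -0.08). Slbp, which binds histone mRNA, was at 54.7 and 53.6 CPM (-0.03).

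**Figure D1:**
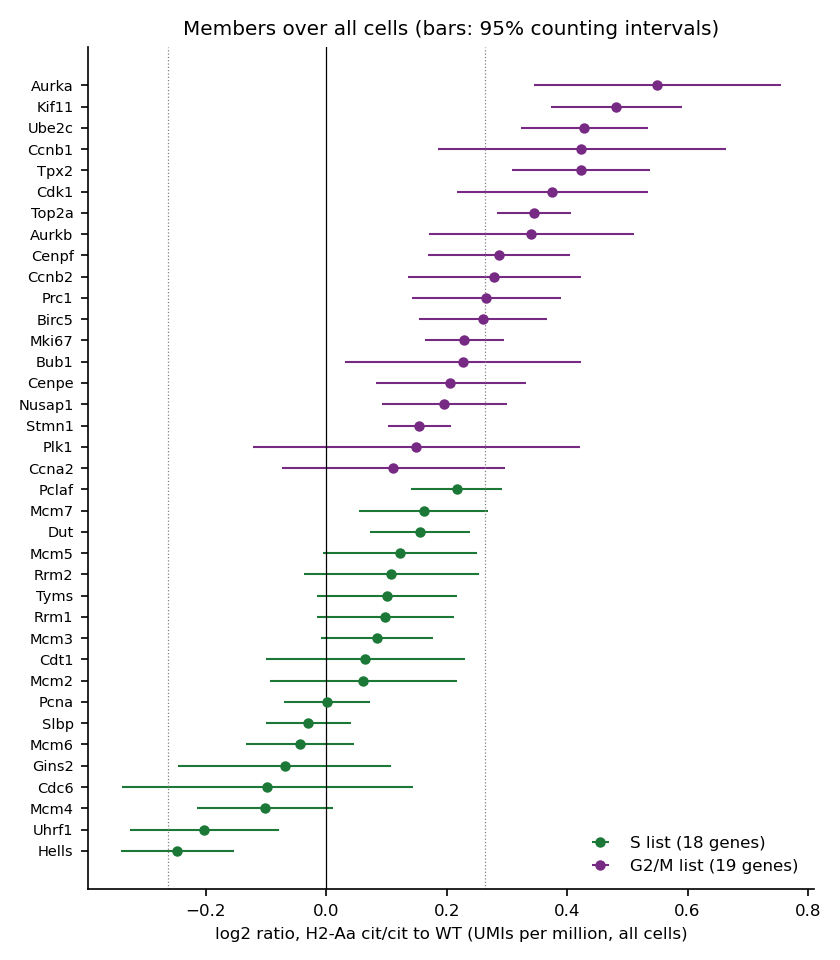
Log2 ratio of CPM, H2-Aa cit/cit to WT, over all cells for each of the 37 members, with 95% counting intervals (1 library per genotype; dotted lines mark 1.2-fold). All 19 G2/M genes lie to the right of 0, up to 0.55 for Aurka, whereas the 18 S genes lie on both sides, from -0.25 for Hells to 0.22 for Pclaf.

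The makeup of the libraries differed along with these levels. cDC2-like cells were 53.3% of the WT library but 74.0% of the H2-Aa cit/cit library, and mature DC-like cells 26.7% and 11.8%. cDC1-like cells were 7.22% and 6.07%. The share of all G2/M list UMIs that came from cDC2-like cells was 65.6% for WT, against 78.7% for H2-Aa cit/cit, and the share from mature DC-like cells 10.3% and 4.81%. With the WT level of each class weighted by the UMI shares that the classes had in the H2-Aa cit/cit library, the G2/M list came to 522 CPM, beside the 527 CPM measured. In this sum the class shares alone gave a log2 difference of 0.26 and the levels within classes 0.01. The latter is a net value over classes set by the marker gate. Their G2/M ratios were -0.48 in cDC1-like, 0.02 in cDC2-like and 0.74 in mature DC-like cells. With cells assigned in another way (below), the cDC2-like ratio was -0.36. For the S list, class shares alone gave 0.17 and levels within classes -0.14, which nearly cancelled.

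cDC1-like cells, the cross-presenting XCR1+ DC, had lower levels of both lists in the H2-Aa cit/cit library. WT had 564 such cells, H2-Aa cit/cit 700. The S list had 692 CPM in WT, compared with 444 CPM in H2-Aa cit/cit (log2 ratio -0.64, interval -0.70 to -0.58), so that WT was 1.56-fold higher. The G2/M list was at 579 and 414 CPM (-0.48, -0.55 to -0.42), with WT 1.40-fold higher. Of the 30 members with at least 200 UMIs in this class, 26 were at least 1.2-fold lower in H2-Aa cit/cit cells (16 of 16 S genes and 10 of 14 G2/M genes) and 0 at least 1.2-fold higher. Among the 7449 genes with that many UMIs in the class, 23.3% were lower and 19.6% higher by that measure, with a median log2 ratio of -0.04. Cdc6, Cdt1, Ccnb1, Ccna2, Aurka, Bub1 and Plk1 had too few UMIs to be counted.

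The S genes of every role were lower in H2-Aa cit/cit cDC1-like cells. Rrm2, the regulated subunit of ribonucleotide reductase, had the lowest ratio of the counted members, with 17.9 and 8.65 CPM (-1.05, -1.47 to -0.63). Hells, which in WT was at 26.7 CPM in cDC2-like cells, was at 87.2 and 46.8 CPM in cDC1-like cells (-0.90, -1.08 to -0.72). The MCM and loading genes summed to 228 and 145 CPM (-0.66, -0.76 to -0.55), from Mcm4 (25.3 and 14.3 CPM, -0.82) to Gins2, of the GINS complex (14.5 and 11.1 CPM, -0.39). Pcna was at 73.3 and 46.0 CPM (-0.67) and Pclaf at 78.6 and 55.6 CPM (-0.50). Tyms, which makes thymidylate, was the S gene with the smallest difference (27.1 and 22.4 CPM, -0.27, -0.57 to 0.02).

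G2/M genes of cDC1-like cells were less uniform. Stmn1 had 144 CPM in WT, compared with 79.4 CPM in H2-Aa cit/cit (-0.86), and Cenpe was at 22.8 and 13.6 CPM (-0.75, -1.10 to -0.40). Mki67 was at 81.6 and 55.2 CPM (-0.56, -0.74 to -0.39), and Cdk1 at 17.9 and 12.97 CPM (-0.46, -0.84 to -0.09). Of the 10 G2/M genes past 1.2-fold, Prc1 (15.2 and 11.7 CPM, -0.39, -0.79 to 0.01) and Aurkb (14.3 and 10.9 CPM, -0.40, -0.81 to 0.02) had intervals that held 0, as did Gins2 and Tyms of the 16 S genes. The 4 G2/M genes under 1.2-fold had such intervals too. These were Kif11 (17.1 and 17.9 CPM, 0.07), Ube2c (36.97 and 36.7 CPM, -0.01), Tpx2 (18.9 and 17.2 CPM, -0.14) and Top2a (70.2 and 63.2 CPM, -0.15). Kif11, Ube2c and Tpx2 were thus not detectably different in cDC1-like cells, and were among the G2/M genes with the highest ratios over all cells.

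Other measures differed between the cDC1-like cells of both libraries. Their median depth was 10199 UMIs in WT and 14451.5 UMIs in H2-Aa cit/cit. Per cell, the S list gave 7.97 and 6.30 UMIs and the G2/M list 6.66 and 5.88 UMIs, so the order was the same without scaling to depth. The summed level of the cDC1 markers was 3384 and 2668 CPM, of the mature DC markers 425 and 136 CPM, and of the pDC markers 191 and 60.4 CPM. Monocyte (203 and 130 CPM), B and plasma cell (24.5 and 9.05 CPM) and T cell markers (7.24 and 3.82 CPM) were lower as well. Markers of cDC2 (555 and 647 CPM), NK cells (101 and 144 CPM), macrophages (28.5 and 48.9 CPM) and the neutrophil lineage (1.54 and 9.15 CPM) were higher in H2-Aa cit/cit, and erythroid markers were at 3.85 and 3.92 CPM. A high doublet score was found in 6.21% and 11.4% of these cells. Over all cells the shares were 6.25% and 9.22%, set in advance by the number of cells in each library. The part of these differences in the result was not tested. When each cell was instead given the class with the highest mean marker z-score, the cDC1-like class grew to 833 and 1010 cells, and the log2 ratios were -0.37 for the S list and -0.11 for the G2/M list.

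cDC2-like cells, the SIRPα+ DC that made up most of either library (4168 and 8533 cells), were close to level. S genes summed to 520.2 CPM in WT, compared with 491 CPM in H2-Aa cit/cit (-0.08, -0.11 to -0.05). G2/M genes summed to 571 and 579 CPM (0.02, -0.01 to 0.05). Of the 37 members, 2 were at least 1.2-fold higher in H2-Aa cit/cit cells and 2 at least 1.2-fold lower, beside 10.4% and 17.5% of the 11109 genes counted. The higher ones were Aurka (6.71 and 8.93 CPM, 0.41, 0.16 to 0.67) and Ccnb1 (4.87 and 6.05 CPM, 0.31, 0.01 to 0.63). The lower ones were the licensing factor Cdc6 (5.93 and 4.61 CPM, -0.36, -0.66 to -0.06) and Gins2 (10.0 and 8.32 CPM, -0.27, -0.49 to -0.04). Assignment by z-score gave a smaller cDC2-like class (1413 and 3376 cells) with lower ratios, -0.18 for the S list and -0.36 for the G2/M list. All 30 members counted in cDC1-like cells had a lower ratio there than in cDC2-like cells, beside 50.8% of the 7390 genes counted in both. This order depended on how cells were assigned, since by z-score it held for 15 of 31 members, beside 46.3% of 7895 genes. By z-score 13 of 17 S genes but 2 of 14 G2/M genes had the lower ratio in cDC1-like cells, so for the G2/M list the order turned.

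**Figure D2:**
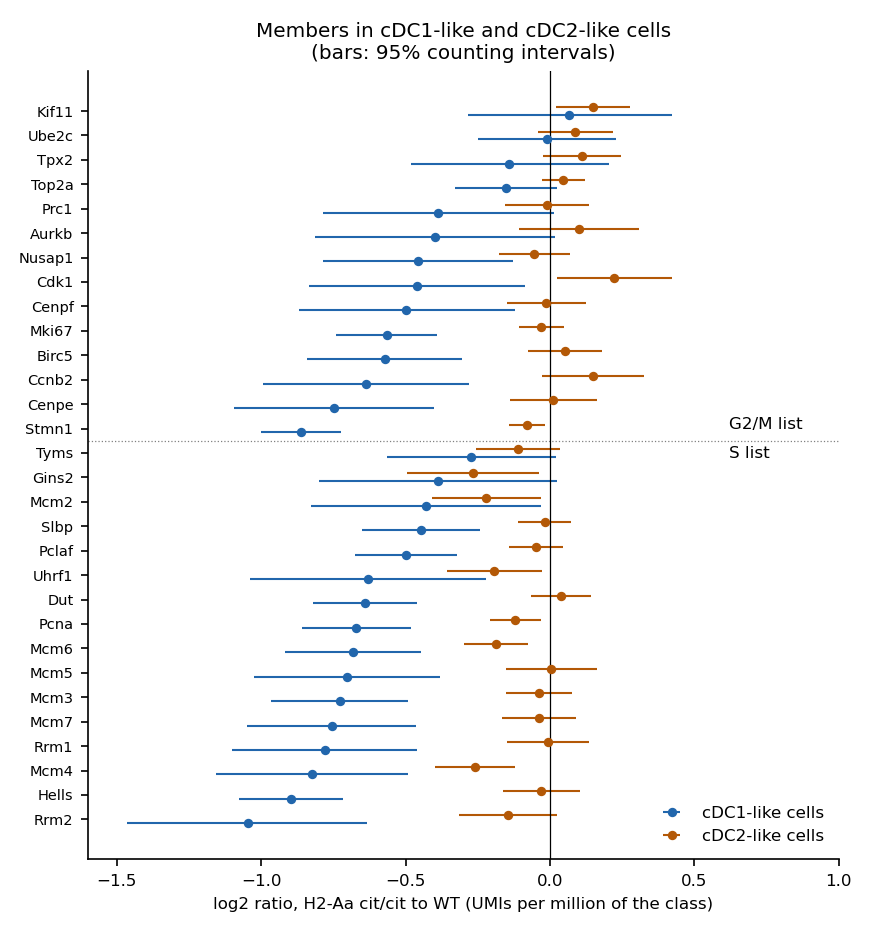
Log2 ratio of CPM within the class (H2-Aa cit/cit over WT) of the 30 members with at least 200 UMIs in cDC1-like cells, in cDC1-like (blue) and cDC2-like (orange) cells, with 95% counting intervals. S genes lie between -1.05 and -0.27 in cDC1-like cells and between -0.27 (Gins2) and 0.037 (Dut) in cDC2-like cells, while the intervals of Kif11, Ube2c, Tpx2 and Top2a hold 0 in cDC1-like cells. Cells are assigned by the marker gate, and by z-score the order of the classes turns for the G2/M list.

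The cDC2 subclasses differed in level and in ratio. Ffar2+ cDC2-like cells were at 548 and 464 CPM for the S list (-0.24, -0.28 to -0.20). Their G2/M list was at 605 and 566 CPM (-0.10, -0.13 to -0.06). All 18 S genes were lower in H2-Aa cit/cit, 11 of them with intervals below 0. The share of all genes that were lower was not counted in this subclass. Ccr2+ cDC2-like cells had the lowest levels among the cDC2 subclasses, with 268 and 250.3 CPM for the S list (-0.10, -0.24 to 0.04) and 231 and 253 CPM for the G2/M list (0.13, -0.01 to 0.28). Wdfy4-rich cells were at 352 and 416 CPM for the S list (0.24, 0.13 to 0.35) and at 320.5 and 474 CPM for the G2/M list (0.56, 0.46 to 0.67). In Wdfy4-rich cells Stmn1 was at 27.4 and 57.2 CPM (1.06) and Top2a at 60.6 and 92.3 CPM (0.61). Beside this, the median depth of Wdfy4-rich cells was 3069.5 and 2379.5 UMIs, and their median share of ribosomal protein UMIs 3.18% and 4.67%, compared with 11.8% and 16.3% in all cDC2-like cells. The remaining cDC2-like cells had the highest levels among cDC2-like cells, with 690.1 and 652 CPM for the S list (-0.08) and 828 and 750.2 CPM for the G2/M list (-0.14).

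Mature DC-like cells (2089 and 1358), the CCR7+ state, held little of either list. Scaled to CPM, both lists were higher in H2-Aa cit/cit. The S list was at 254 and 319 CPM (0.33, 0.25 to 0.40) and the G2/M list at 152 and 254 CPM (0.74, 0.65 to 0.83). Only 12 S genes and 6 G2/M genes had at least 200 UMIs there. Of these, 8 S genes and 6 G2/M genes were at least 1.2-fold higher in H2-Aa cit/cit cells and 1 S gene that much lower, beside 27.9% and 13.9% of the 8279 genes counted, whose median log2 ratio was 0.093. Among the higher ones were Pclaf (12.1 and 23.2 CPM, 0.94, 0.63 to 1.25), Tpx2 (7.74 and 16.03 CPM, 1.05, 0.67 to 1.43) and Stmn1 (27.8 and 52.8 CPM, 0.92, 0.72 to 1.13). Hells was the lower one (24.1 and 19.1 CPM, -0.34, -0.63 to -0.05). Markers of other DC differed as well, with cDC1 markers at 403 and 72.4 CPM and cDC2 markers at 1295 and 2178 CPM. High doublet scores were found in 7.23% and 11.6% of these cells, beside the 6.25% and 9.22% of all cells set by library size. The part of these markers and scores in the result was not tested. Without cells of high doublet score the G2/M ratio was 0.60, and as a mean over cells the S ratio was 0.20. The median depth was 6314 UMIs in WT and 4855.5 UMIs in H2-Aa cit/cit. Per cell, the S list gave 1.83 and 1.70 UMIs, so its order turned without scaling to depth, and the G2/M list 1.09 and 1.35 UMIs. At least 2 S list UMIs were found in 38.1% and 28.9% of cells. With every cell thinned to 1500 UMIs this was 5.96% and 6.30% (0.34 points, -1.32 to 2.10).

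Smaller classes gave fewer UMIs. pDC-like cells (105 and 106) were at 240 and 217 CPM for the S list (-0.14, -0.44 to 0.15) and at 138 and 68.7 CPM for the G2/M list, from 148 and 50 UMIs (-1.01, -1.51 to -0.54). Few cells carried these G2/M UMIs. Without thinning, 8 WT and 12 H2-Aa cit/cit pDC-like cells (7.62% and 11.3%) had at least 2 of them, so this share went the other way. After thinning to 1500 UMIs, 2 and 1 cells had as many. Monocyte-like cells (184 and 151) were at 353 and 245 CPM for the S list and at 232 and 267 CPM for the G2/M list. NK-like cells (33 and 28) had high G2/M levels in both libraries, with 1783 and 2640 CPM. At least 2 G2/M list UMIs were found in 6 NK-like cells of either library without thinning. Neutrophil-lineage cells (11 and 18) had 0 G2/M UMIs in WT but 603 in H2-Aa cit/cit, or 3112 CPM. A count of 0 has an exact Poisson interval that reaches up to 67.4 CPM in WT. The cells of both libraries also differed in their markers, with neutrophil markers at 65668 and 140868 CPM and cDC1 markers at 2374 and 243 CPM, and the part of this in the G2/M level was not tested.

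**Figure D3:**
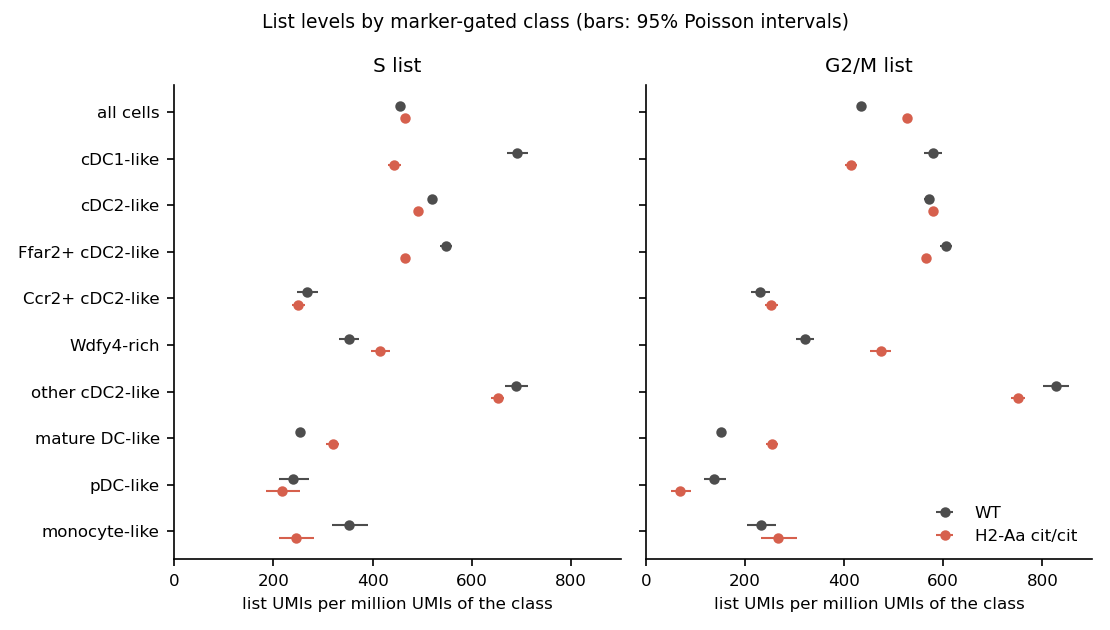
CPM within the class for the S list (left) and the G2/M list (right), by class and library, WT beside H2-Aa cit/cit, with 95% Poisson intervals. The libraries lie farthest apart on the S list in cDC1-like cells (692 and 444 CPM), and the lowest G2/M level drawn is in pDC-like cells of H2-Aa cit/cit (68.7 CPM).

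Shares of cells were compared at equal depth, with every cell thinned to 1500 UMIs, removing 734 WT cells, against 958 for H2-Aa cit/cit. At least 2 S list UMIs were then carried by 10.4% of the WT cells (9.72 to 11.2) and by 10.9% of those of H2-Aa cit/cit (10.3 to 11.5), which differed by 0.45 percentage points (-0.48 to 1.37). At least 2 G2/M list UMIs were found in 5.89% (5.35 to 6.46) and 7.28% (6.79 to 7.79), 1.39 points apart (0.64 to 2.12). Without thinning, these shares were 38.2% and 36.8% for the S list and 15.9% and 18.4% for the G2/M list. Mature DC-like and pDC-like cells gave the level in cells regarded as resting, with 5.88% to 7.92% for the S list and 0.98% to 3.55% for the G2/M list. Their median depths were 6314 and 4855.5 UMIs for mature DC-like and 10078 and 7018 UMIs for pDC-like cells. Of the cells counted at 1500 UMIs, 391 of 738 in WT and 544 of 1149 in H2-Aa cit/cit had exactly 2 S list UMIs, and 136 of 417 and 221 of 769 exactly 2 G2/M list UMIs.

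In cDC1-like cells, fewer H2-Aa cit/cit than WT cells carried either list. The S list share was 18.4% (15.2 to 21.9) in WT and 11.4% (9.12 to 14.0) in H2-Aa cit/cit, a difference of -6.96 points (-11.0 to -2.98). For mitosis genes the share was 11.5% (8.92 to 14.4) and 7.89% (5.99 to 10.2), so the difference was -3.56 points (-7.00 to -0.26). Both lists together were carried by 7.09% and 3.07% (-4.02 points, -6.69 to -1.58). These differences rest on equal depth, and with at least 3 UMIs required they were -2.73 points for the S list and -2.04 points for the G2/M list. By z-score class they were -4.25 and -1.01 points. The unthinned shares were 63.3% and 63.1% for the S list and 30.0% and 31.1% for the G2/M list. In cDC2-like cells the shares were 11.6% and 11.7% for the S list (0.10 points, -1.14 to 1.31) and 7.09% and 7.85% for the G2/M list (0.76 points, -0.27 to 1.73). Of the cells with G2/M UMIs, 54.9% (WT) and 52.1% (H2-Aa cit/cit) also carried S list UMIs, compared with 7.64% and 7.63% of all other cells. In cDC1-like cells this was 61.9% (48.8 to 73.9) and 38.9% (25.9 to 53.1), from 63 and 54 cells.

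**Figure D4:**
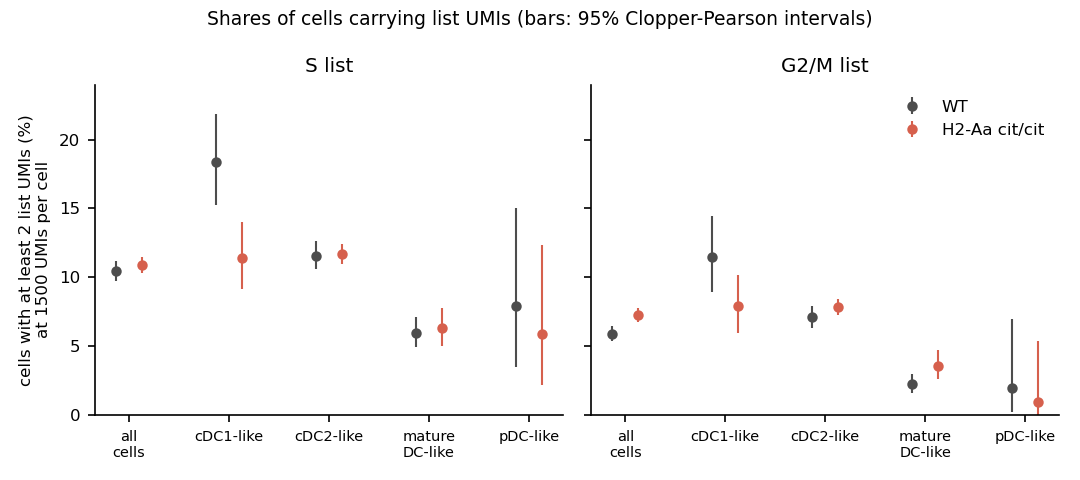
Percentage of cells with at least 2 UMIs of the S list (left) or of the G2/M list (right) after thinning to 1500 UMIs per cell, by class, WT beside H2-Aa cit/cit, with 95% Clopper-Pearson intervals. The cDC1-like share for the S list is 18.4% for WT, against 11.4% for H2-Aa cit/cit, and of the cDC1-like, cDC2-like, mature DC-like and pDC-like classes drawn, the last pair lies lowest in both panels.

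The balance of the lists leaned from S towards G2/M in the H2-Aa cit/cit library as a whole, but not in every class. Over all cells there were 1.05 S list UMIs per G2/M list UMI in WT, compared with 0.883 in H2-Aa cit/cit. The quotient was lower in H2-Aa cit/cit for the cDC1-like (1.196 and 1.07), the cDC2-like (0.911 and 0.849) and the mature DC-like class (1.67 and 1.26), with log2 differences of -0.16 (-0.25 to -0.07), -0.10 (-0.14 to -0.06) and -0.41 (-0.53 to -0.29). It was higher in pDC-like cells (1.73 and 3.16) and macrophage-like cells (1.10 and 2.52), and not detectably different in the cDC2-like cells outside the subclasses (0.834 and 0.869, interval -0.02 to 0.14). These classes were set by the marker gate. By z-score class, cDC2-like cells had a lower ratio for the G2/M list (-0.36) than for the S list (-0.18), so their balance turned towards S. It did not turn in cDC1-like (-0.37 for the S list and -0.11 for the G2/M list) or mature DC-like cells (0.45 and 0.73).

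Members were also followed in cells staged by other cell cycle genes, 42 of S phase and 58 of G2/M, none of them a member. Cells with at least 3 UMIs and at least 5 per 10000 UMIs of a staging list numbered 1756 for WT (22.5%), against 2646 for H2-Aa cit/cit (23.0%). This limit was lax, since 963 and 1321 of them lay under 10 per 10000 and 22.7% and 23.4% of the mature DC-like cells passed it. A limit of 20 per 10000, chosen after seeing the data, left 463 cells (5.93%) and 811 cells (7.04%), with 2.15% and 3.02% of mature DC-like, 11.0% and 7.86% of cDC1-like and 7.10% and 7.55% of cDC2-like cells. These labels sort cells by RNA and were not read as a count of dividing cells.

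Staging separated both lists. Since the staging genes mark the same phases as the members, this order was largely set in advance and is a description only. The share over all genes was not counted. At the lax limit, 16 of 18 S genes in WT and 17 of 18 in H2-Aa cit/cit were higher in S-staged than in G2/M-staged cells. The exceptions were Pclaf, at 9.62 CPM in S-staged and 30.9 CPM in G2/M-staged WT cells (17.9 and 30.6 CPM in H2-Aa cit/cit), and Rrm2, which had 2.06 and 2.60 CPM in WT (for H2-Aa cit/cit, 3.24 and 2.56 CPM). At the strict limit the counts were 16 and 18 of 18. Pclaf was then at 190 and 283 CPM in WT, but in H2-Aa cit/cit its direction turned, with 290 CPM in S-staged and 266 CPM in G2/M-staged cells (-0.12, -0.29 to 0.05). All 19 G2/M genes were higher in G2/M-staged than in S-staged cells, in both libraries and at either limit. Plk1 gave no ratio in WT, with 0 UMIs in S-staged cells and 41 in G2/M-staged cells at the lax limit. Cenpf, for example, was at 2.23 and 107 CPM in WT, and Stmn1, the least separated, at 51.5 and 131 CPM. At the lax limit, cells that passed both staging lists held the highest level of both lists, with 2507 and 2236 CPM of S list UMIs and 3412 and 3554 CPM of G2/M list UMIs. At the strict limit this held for the S list only (3647 and 3328 CPM). Their G2/M list was then at 5567 and 5677 CPM, under the 5985 and 5853 CPM of G2/M-staged cells. The share of a gene's UMIs that lay in staged cells at the lax limit ran from 46.5% for Slbp to 94.3% for Ccna2, with Pcna at 53.9% and Rrm2 and Pclaf both at 93.7%. Slbp and Pcna were thus found widely outside staged cells, whereas Rrm2, Pclaf and Ccna2 had few UMIs there.

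**Figure D5:**
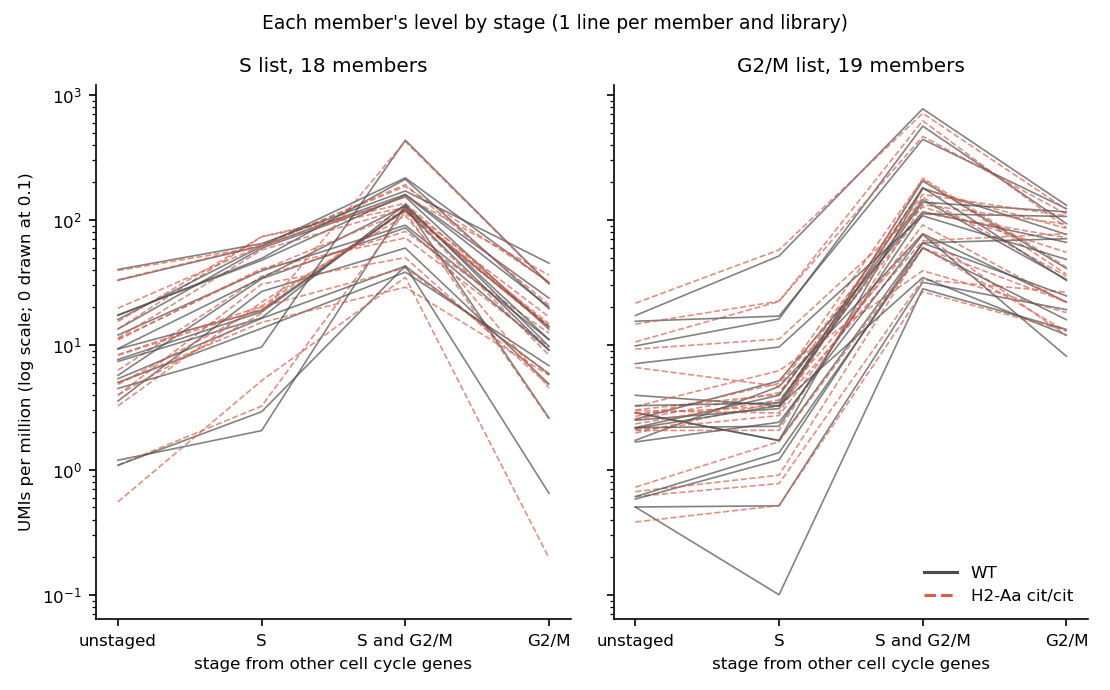
CPM (log axis, 0 drawn at 0.1) of each member in unstaged, S-staged, S and G2/M-staged and G2/M-staged cells, 1 line per member for WT (solid) and for H2-Aa cit/cit (dashed), with the S list left and the G2/M list right. Most S genes drop from S-staged to G2/M-staged cells, whereas G2/M genes climb, with Cenpf in WT at 2.23 and 107 CPM.

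Within staged cells the difference between libraries was smaller for mitosis genes than over all cells. The G2/M list had 1438 and 1645 CPM at the lax limit (0.19, 0.17 to 0.22) and at 4197 and 4411 CPM at the strict limit (0.07, 0.04 to 0.10). The S list was at 1149 and 1145 CPM (-0.01, -0.03 to 0.02) and at 2643 and 2377 CPM at the strict limit (-0.15, -0.19 to -0.12). At the lax limit 6 of the 37 members were at least 1.2-fold higher in H2-Aa cit/cit cells and 0 lower, beside 14.4% and 18.9% of 9918 genes. The 6 were Kif11, Aurka, Tpx2, Ccnb1, Cdk1 and Top2a, all among the 19 G2/M genes. Taken over both lists, the share of higher members was near that of all genes. At the strict limit 2 were higher and 6 lower, beside 11.4% and 12.5% of 7078 genes. Taken over both lists, the share of higher members was then under that of all genes, and the share of lower ones little above it. By list, 6 of 18 S genes were lower and 0 higher, while 2 of 19 G2/M genes were higher and 0 lower. Ratios below 0 were found for 17 of the 18 S genes. How many of all genes had ratios below 0 was not counted. Aurka and Kif11 were the higher ones under both limits, with Aurka at 42.4 and 53.2 CPM (0.33, 0.07 to 0.59) and Kif11 at 213 and 259 CPM (0.28, 0.17 to 0.40) at the strict limit. The lower ones were Gins2, Mcm4, Mcm6, Cdc6, Hells and Pcna, all of the S list, with Gins2 lowest at 40.3 and 30.9 CPM (-0.38, -0.68 to -0.08) and Pcna at 232 and 191 CPM (-0.28, -0.40 to -0.16). Pclaf did not follow them, with 471 and 474 CPM (0.01, -0.07 to 0.09).

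Counts of the staging genes, which are cell cycle genes outside both lists, were taken in the same way. Over all cells, 18 of 56 counted G2/M staging genes were at least 1.2-fold higher in H2-Aa cit/cit cells and 4 lower. Of 42 S staging genes, 5 were higher and 3 lower. Among all genes counted, 18.5% were higher and 21.6% lower. In cDC1-like cells 14 of 15 S staging genes and 16 of 18 G2/M staging genes were at least 1.2-fold lower and 0 higher. The shares of all genes counted in this class were 23.3% lower and 19.6% higher. In cDC2-like cells 8 of 42 S staging genes were lower and 0 higher, and 5 of 56 G2/M staging genes were lower and 2 higher. The shares of all genes counted in that class were 17.5% lower and 10.4% higher. None of the 7 genes of the MuvB, B-MYB and FOXM1 group, which switch on G2/M genes, passed 1.2-fold over all cells, from a median log2 ratio of -0.09.

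Regulators of entry into the cycle and its inhibitors included larger ratios than those of the members. Over all cells the D-type cyclin Ccnd3 was at 327 and 592 CPM (0.86, 0.83 to 0.88) and Ccnd2 at 85.4 and 120.1 CPM (0.49, 0.44 to 0.54). Ccnd1, also a D-type cyclin, was lower, at 524 and 461 CPM (-0.18, -0.21 to -0.16). Cdk6, a kinase partner of D-type cyclins, was at 133 and 90.3 CPM (-0.56, -0.61 to -0.51). In cDC2-like cells Ccnd1 was at 614 and 491 CPM (-0.32, -0.35 to -0.29), while in mature DC-like cells it was at least 1.2-fold higher. Of 19 G1/S regulators counted over all cells, 5 were at least 1.2-fold higher (Ccnd3, Ccnd2, Cdk4, Cdc25a and Myc). Another 5 were that much lower (Cdk6, Rbl1, Rbl2, Tfdp2 and Mycl), beside the 18.5% and 21.6% given for all genes. Of 9 inhibitors and antiproliferative genes, 4 were lower and 0 higher, beside the same shares of all genes. Among the lower ones were Cdkn2b (22.0 and 7.02 CPM, -1.65) and Cdkn1a, which encodes p21 (48.4 and 28.6 CPM, -0.76, -0.85 to -0.68). Within cDC2-like cells Cdkn2b was at 3.89 and 2.02 CPM (-0.95, -1.36 to -0.54), and cDC1-like cells held 5 of its UMIs in either library. Btg1, also among the 4, stayed under 1.2-fold in cDC1-like (-0.21) and cDC2-like cells (-0.25). The part of the class shares in these all-cell ratios was not tested. Of 8 genes of this group counted in mature DC-like cells, Cdkn1a and Tob1 were at least 1.2-fold lower and Btg2 was that much higher. The shares of all genes counted in that class were 13.9% lower and 27.9% higher. The lowest ratio of the group in these cells was -0.42. Cdkn1a had the opposite direction in cDC1-like cells, with 11.1 and 58.2 CPM (2.39, 2.04 to 2.77). The same held in cDC2-like cells, with 5.30 and 11.99 CPM (1.18, 0.91 to 1.46). The drop of Cdk6 over all cells was not detected within these cDC classes. Cdk6 was at 51.4 and 67.9 CPM in the cDC1-like class (0.40, 0.21 to 0.59). Its level was 61.2 and 58.1 CPM in the cDC2-like class (-0.07, -0.16 to 0.02). Among mature DC-like cells, Cdk6 was at least 1.2-fold higher for H2-Aa cit/cit. The p53 targets Sesn2 (11.6 and 41.6 CPM, 1.85), Ccng1 (23.4 and 38.7 CPM, 0.73) and Bax (145 and 207 CPM, 0.52) were likewise higher in the cDC1-like class of H2-Aa cit/cit, as was Ccnd2 (12.3 and 44.8 CPM, 1.86, 1.52 to 2.23). Trp53inp1, another p53 target, was lower there (21.1 and 16.5 CPM, -0.36). Mdm2 (-0.02) and Sesn1 (-0.04) stayed under 1.2-fold. Thus 3 of 6 counted p53 targets were higher and 1 lower, beside 19.6% and 23.3% of all genes counted in this class.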

How the data were processed

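UMI counts per gene and cell were deposited for splenic DC, in 1 WT library and 1 H2-Aa cit/cit library. The authors made these counts with Cell Ranger 5.0.1 and did not normalize them. The genome build is mm10 per the labels, and the paper's later clustering in Seurat is not part of the files. Members and gene lists were chosen with earlier results of these data known.

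All deposited cells were kept (at least 500 UMIs each), doublets included. Counts were summed per library and class and divided by the library's or class's total, giving CPM, UMIs per 1000000. Log2 ratios carry exact conditional binomial intervals, levels exact Poisson intervals, shares Clopper-Pearson and differences of shares Newcombe intervals, all at 95%. Log2 differences of the S to G2/M quotient between libraries carry 95% intervals from a normal approximation instead. A gene was counted with at least 200 UMIs in both libraries together, and past the fold at 1.2-fold. Classes were gated in a fixed order on summed marker UMIs per 10000 and at least 2 different markers, with thresholds set from the distributions of the sums after the data had been seen. Shares used cells thinned to 1500 UMIs. Doublet scores came from Scrublet at the rate expected for the number of cells, so that 488 WT and 1063 H2-Aa cit/cit cells were left out in that alternative. Named genes are all 37 members, with full values by role group and for extreme ratios, and genes of other cycle lists past the fold. A few further examples were named after their values were seen.

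Simulated data with the all-cell counts checked the ratio step: of 11980 unchanged genes 95.3% of intervals held the truth and 0.902% passed 1.2-fold on the higher side. Of 100 genes each changed 1.5-fold and 2-fold 98% and 94% of intervals held the truth and 100% passed. The counts were drawn independently, as the intervals assume, so this checks the calculation only. Spread between cells or mice was not simulated. Gene positions were from GENCODE vM21. Python 3.11.15, numpy 2.4.6, scipy 1.17.1, pandas 2.3.3, scanpy 1.11.5 and matplotlib 3.10.9 were used. Other scalings, means over cells, limits on mitochondrial UMIs, fold and UMI minimums, thinning depths, classes by z-score and staging limits were tried as alternatives.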

Additional observations from a re-analysis of the deposited data

Results flagged for a closer look

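The direction of the difference between libraries was not the same in every class. In cDC1-like cells both lists had lower levels when H2-Aa cit/cit was set against WT, with log2 ratios of -0.64 for the S list and -0.48 for the G2/M list. In mature DC-like cells both had higher levels in H2-Aa cit/cit, with 0.33 for the S list and 0.74 for the G2/M list. These levels are scaled to depth, and per cell the S list gave 1.83 UMIs in WT and 1.70 UMIs in H2-Aa cit/cit mature DC-like cells. With 1 library per genotype, the difference between these classes was not tested.

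Neutrophil-lineage cells lay outside the DC classes and were few, 11 in WT against 18 in H2-Aa cit/cit. Neutrophil markers (65668 and 140868 CPM) and cDC1 markers (2374 and 243 CPM) differed between them. The G2/M list was at 3112 CPM in the 18 H2-Aa cit/cit cells and at 0 UMIs in the 11 WT cells. Ube2c (78 UMIs), Stmn1 (115 UMIs) and Top2a (70 UMIs) led it. At least 2 G2/M UMIs were found in 7 of the 18 cells, and 4 of the 18 had a high doublet score.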

How the results depend on the processing

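Of 117 alternative values, 68 were planned, of which 52 stayed within the counting interval of the reported value (counts within 1.5 times), and 49 were chosen after seeing the data, of which 22 stayed so. The cause of the moves was not tested. In all, 9 values had the opposite sign. They included values whose reported interval excludes 0, the S list over all cells as a mean over cells (-0.055) and the G2/M share of cDC1-like cells without thinning (1.18 points). The others started from values whose interval held 0. They were the S share of all cells without thinning, that of cDC2-like cells at 3000 UMIs (-0.18 points) and by z-score class (-0.78 points), the S ratio in staged cells without high doublet scores, with median-ratio scaling (0.0081) and without Slbp (0.0023), and the G2/M ratio in cDC2-like cells by z-score class. By z-score class the cDC1-like share differences were -4.25 (S list) and -1.01 points (G2/M list), and the latter was -2.04 points with at least 3 UMIs. Without thinning the share differences were also -1.38 points (S list, all cells), 2.49 points (G2/M list, all cells) and -0.16 points (S list, cDC1-like), and with at least 3 UMIs the last was -2.73 points. In staged cells the S list ratio was -0.15 at 10 and at 20 per 10000 and 0.052 without high doublet scores. The G2/M list ratio there was 0.042 at 10 and 0.072 at 20 per 10000, 0.17 without cells outside the DC classes, 0.30 without high doublet scores and 0.24 without Stmn1. Over all cells the G2/M ratio was 0.33 without high doublet scores and 0.31 without Stmn1. As means over cells, the S ratio was -0.52 in cDC1-like, -0.12 in cDC2-like and 0.20 in mature DC-like cells, and the G2/M ratio -0.35, 0.17 and 0.52. By z-score class, the S ratio was -0.37, -0.18 and 0.45, and the G2/M ratio -0.11 in cDC1-like and -0.36 in cDC2-like cells. With median-ratio scaling, the S ratio was -0.034 in cDC2-like and 0.24 in mature DC-like cells, and the G2/M ratio 0.068 and 0.65. The S ratio in cDC1-like cells was -0.55 with a gate of 20 per 10000, and without high doublet scores the G2/M ratio was -0.34 in cDC1-like and 0.60 in mature DC-like cells. At 1.5-fold, 0 members were higher over all cells, 0 in staged cells and 0 in cDC2-like cells, 14 were lower in cDC1-like and 0 in cDC2-like cells. The share of all genes past 1.5-fold was not counted. The ratio was lower in cDC1-like than in cDC2-like cells for 15 members by z-score class, beside 30 by the gate. With median-ratio scaling 1 was lower in cDC2-like cells, and at the strict staging limit 2 were higher and 6 lower. No paired analysis was possible because each genotype had 1 library and no test was run. Thinned levels near 1 UMI per cell limit what shares can show.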

Other observations

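NK-like cells were few (33 WT and 28 H2-Aa cit/cit cells) and carried S list UMIs at 897 and 677 CPM, beside G2/M levels of 1783 and 2640 CPM. Mki67 was at 165 and 500.2 CPM there, from 31 and 65 UMIs. Macrophage-like cells (148 and 83) were at 346 and 227 CPM for the S list and at 316 and 90.3 CPM for the G2/M list, at median depths of 1129.5 and 1293 UMIs per cell. Their G2/M list levels came from 155 and 27 UMIs, and 17 and 5 cells had at least 2 of them without thinning.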
